A study of Mus musculus with 4 samples.

Results

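The cells described here are proliferating early neutrophil precursors of mouse bone marrow, taken from single-cell RNA sequencing of 4 mice. They were picked cell by cell from raw counts of unique molecular identifiers (UMIs, 1 per captured transcript). A cell was a member when it held at least 3 UMIs of Fcnb, at least 5 of Camp, at least 2 of Mki67 and Top2a together, and 0 of Csf1r. Among 39743 cells with at least 300 detected genes and at most 20% mitochondrial UMIs, 3274 passed these gates. The numbers were 883 of 9261 cells and 600 of 7826 cells in the vehicle mice, and 1091 of 13387 cells and 700 of 9269 cells in the mice given purinostat mesylate.

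All 4 mice carried the 5TMM myeloma model: 5TGM1-luc myeloma cells were injected into a vein of C57BL/KawRij mice at 6 weeks of age and left for 3 weeks. The mice were then given vehicle (n = 2) or 10 mg/kg purinostat mesylate (PM, n = 2), an inhibitor of class I and class IIb histone deacetylases (HDACs), and the bone marrow was taken after 24 h. There was no mouse without myeloma, so every value describes marrow that also held tumour cells. Each library came from 1 mouse and was made with droplet 3′ chemistry after red cell lysis, with 86052982 and 69828595 UMIs in the vehicle libraries and 109447030 and 74388936 in the PM libraries.

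Neutrophils arise in the marrow through the granulocyte-monocyte progenitor, the promyelocyte and the myelocyte, and stop dividing at the metamyelocyte stage. The proteins of the primary (azurophil) granules, such as myeloperoxidase and neutrophil elastase, are made at the promyelocyte stage, and those of the secondary granules, such as lactoferrin and cathelicidin, are made later, at the myelocyte stage. The transcription factors C/EBPε and GFI1 are needed for this step, and a dividing cell that carries secondary granule transcripts lies at the transition.

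The members were deep cells. Their median was 17886 and 18312 UMIs per cell in the vehicle libraries and 15233 and 16435 in the PM libraries, where the other kept cells had medians of 5472, 4803, 4314 and 4460. Together they held 17136537, 12210108, 18746794 and 12605410 UMIs, in the order vehicle 1, vehicle 2, PM 1, PM 2, which is kept below wherever 4 values follow each other. Mitochondrial transcripts took a median of 1.58%, 1.49%, 2.07% and 2.14% of their UMIs. Across the 6 pairs of libraries, at most 1 member barcode was shared, and 18 to 39 barcodes of all kept cells.

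Levels against the other populations of the same marrow were read as CPM, the counts of a gene in the summed UMIs of a population scaled to 1000000. They describe the choice of members and carry no test, since the members were picked on these counts. Fcnb (ficolin B) stood at 939 ± 203 CPM (SD, n = 4) and Camp (cathelicidin) at 34584 ± 2900 CPM, against 62.4 and 9003 CPM in all other cells. Among markers the gates did not use, Chil3, a chitinase-like protein of early neutrophils, averaged 9389 ± 1483 CPM against 2138 ± 473 CPM in the other cells. Cebpe averaged 578 ± 24.9 CPM against 157 ± 28.1 CPM. Both markers were above the other cells in all 4 libraries. They were as high in cells of the same granule gates without a Mki67 or Top2a UMI, at 9022 ± 1345 and 616 ± 87.9 CPM, so they mark the neutrophil line, and the proliferating part of the label rests on the gate genes.

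The nearest stages were gated in the same way. Cells with the same Fcnb, Camp and Csf1r gates but no Mki67 or Top2a UMI (non-cycling cells, 179, 217, 169 and 130 per library) stand for the next step. Cells with at least 5 Elane and 5 Mpo UMIs and at most 4 of Camp (332, 230, 528 and 324) are called here the GMP-like gate, after the granulocyte-monocyte progenitor. Cells with a Cxcr2 UMI and none of Fcnb, Mki67, Top2a or Csf1r stand for late neutrophils (4162, 2700, 4697 and 3750). Cells with at least 2 Mki67 and Top2a UMIs but at most 2 of Fcnb and 4 of Camp are the other cycling cells (847, 897, 1200 and 891).

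Along this order Ltf (lactoferrin), which no gate used, averaged 40.3 ± 10.1 CPM (SD, n = 4) in the GMP-like gate, 7861 ± 2513 CPM in the precursors and 19901 ± 2939 CPM in the non-cycling cells. Ngp (neutrophilic granule protein) followed the same order, at 91.0, 28212 and 47338 CPM. Gfi1 stood at 86.3 ± 24.6 CPM in the GMP-like gate, 141 ± 63.2 CPM in the precursors and 45.9 ± 35.6 CPM in the non-cycling cells. The spread of Gfi1 over the 4 libraries overlaps between neighbouring populations, and it mixes treated and untreated mice. Elane and Mpo, the transcripts of neutrophil elastase and myeloperoxidase, were still abundant in the summed UMIs of the precursors, at 2923 ± 838 and 2779 ± 970 CPM. The median member held only 1, 1, 7 and 6 UMIs of Elane and Mpo together, so these sums do not describe the typical member.

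**Figure D1:**
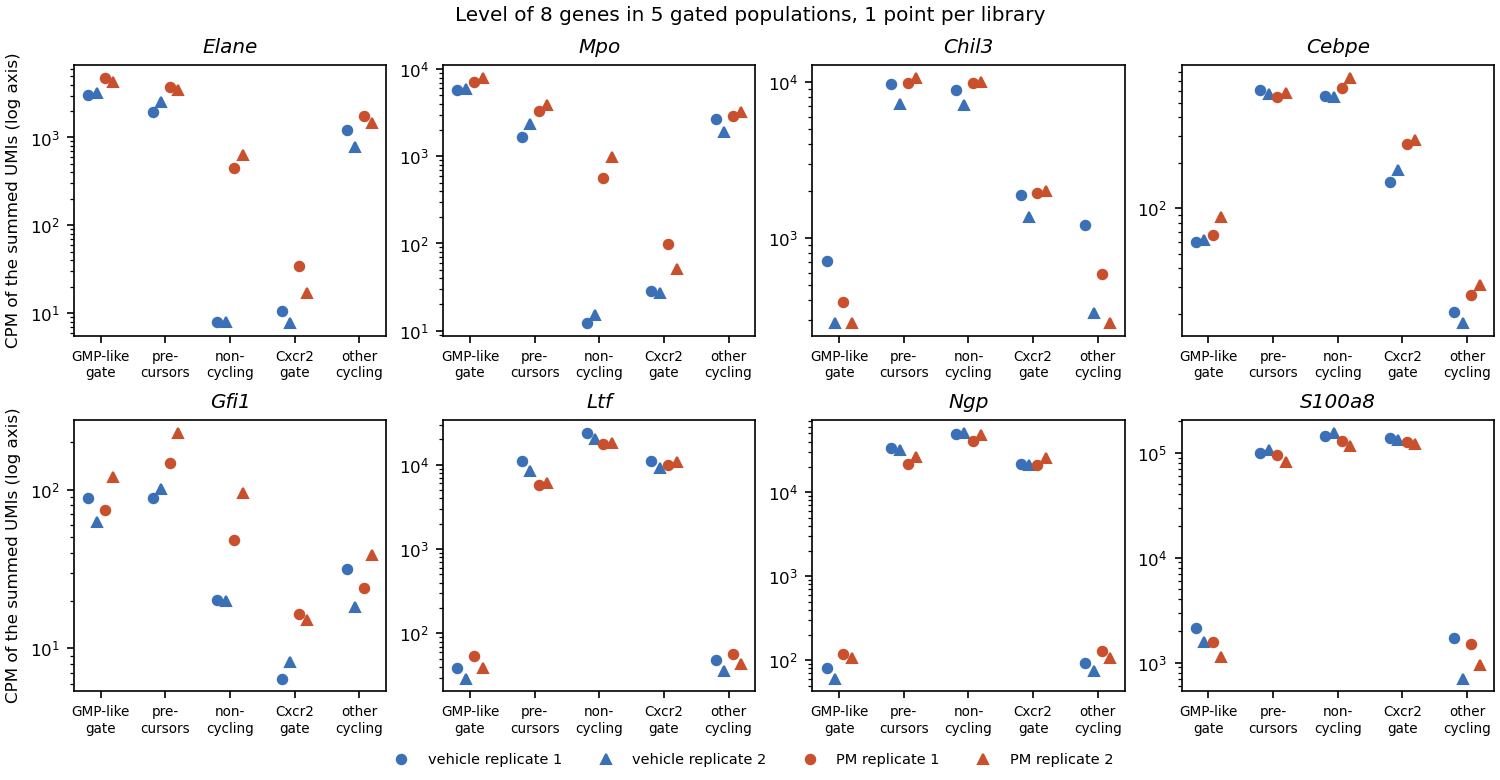
Level of 8 genes in 5 gated populations, as CPM of the summed UMIs on a log axis, with 1 point per library (circles replicate 1, triangles replicate 2, blue vehicle, red PM). Ltf, Ngp and S100a8 are low in the GMP-like gate and the other cycling cells and high in the precursors, the non-cycling cells and the Cxcr2 gate, and Elane and Mpo are low in the vehicle non-cycling cells.

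Beyond the gates, the genes that stood highest over the other cells of the same library were led by Mogat2, a monoacylglycerol acyltransferase gene, at 52.2 ± 5.15 CPM (SD, n = 4) against 5.67 ± 1.56 CPM. Ncam1, a neural cell adhesion molecule gene, reached 218 ± 19.5 CPM against 40.8 ± 4.83 CPM. Cdc25a, a phosphatase that drives entry into S phase, reached 210 ± 21.4 CPM against 52.3 ± 4.12 CPM. At the other end were Fn1 (fibronectin) at 7.28 ± 8.41 CPM against 446 ± 83.2 CPM and Ccr2, a chemokine receptor of monocytes, at 7.78 ± 6.88 CPM against 398 ± 112 CPM. Fn1 and Ccr2 were thus low in the members of every library, and highest in PM 1, where Fn1 was at 19.8 CPM against 2.21 to 4.14 CPM in the other 3 libraries.

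At the edge of the cycling gate, 46, 43, 54 and 43 cells that passed the other gates had 1 Mki67 or Top2a UMI and stayed outside, and 22, 21, 45 and 23 cells had 2 and were taken. The transcripts of a list of 52 G2/M genes took 3.54, 3.31, 3.94 and 4.16 per mille of the UMIs in the cells with 1 such UMI, and 3.86, 5.18, 5.08 and 4.61 per mille in the cells with 2. Members with 3 or more stood at 15.2, 14.0, 13.1 and 13.7 per mille. In G2/M transcripts the cells just inside the gate were thus nearer to those just outside it. In S phase transcripts they stood between, at 0.473, 0.644, 1.86 and 1.51 per mille with 1 such UMI, 0.498, 1.11, 2.70 and 3.37 per mille with 2, and 4.18, 4.10, 3.73 and 4.67 per mille with 3 or more. The cells with 2 were few beside the 861, 579, 1046 and 677 members with 3 or more. At the Fcnb gate, 62, 29, 111 and 65 cells stopped at 2 UMIs, and 47, 27, 104 and 62 members had exactly 3.

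Within the gates the members formed a range from cells rich in primary granule transcripts to cells rich in secondary granule transcripts. Inside each library, the per-cell share of UMIs of 10 primary granule genes and that of 17 secondary granule genes ran against each other, with Spearman correlations across cells of −0.71 to −0.82. These are shares of the same total, they include depth, and cells of 1 mouse are not replicates, so they are descriptions. The primary granule share ran with that of ribosomal protein genes (0.79 to 0.88), weakly with that of S phase genes (0.24 to 0.35) and against that of G2/M genes (−0.32 to −0.46).

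Members with at least 20 UMIs of Elane and Mpo together made up 25% (221 of 883) and 29.3% (176 of 600) of the precursors in the vehicle libraries and 40.8% (445 of 1091) and 40.0% (280 of 700) in the PM libraries. Both PM libraries were above both vehicle libraries. Members with at most 5 such UMIs made up 66.7% and 66.7% in vehicle and 46.7% and 49.9% after PM. The cuts at 20 and 5 UMIs were set after the values had been seen, so these shares carry no test, and the PM members were shallower, which lowers a count of UMIs per cell.

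**Figure D2:**
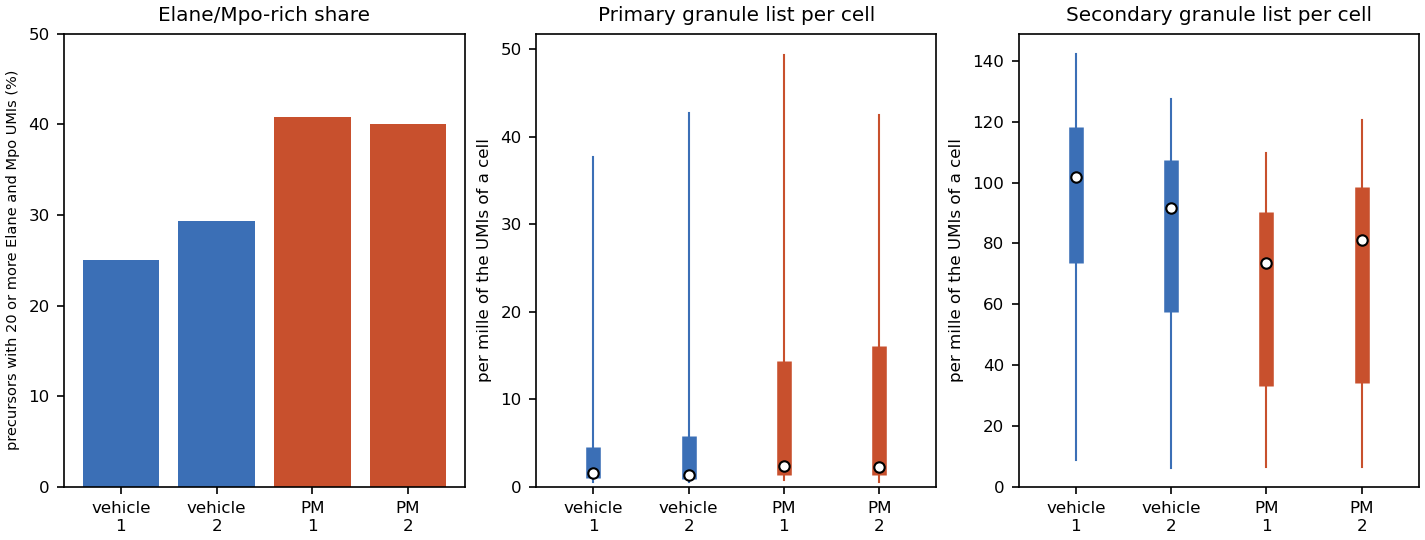
Left, percent of precursors with at least 20 Elane and Mpo UMIs in each library; middle and right, per-cell share of UMIs (per mille) of the primary and secondary granule lists, with the median as a white point, the quartiles as a thick bar and the 5th to 95th percentiles as a line. The PM libraries have the higher Elane and Mpo shares (40.8% and 40.0% against 25% and 29.3%) and the lower secondary granule medians (73.5 and 81.1 against 102 and 91.8 per mille).

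The share of precursors among all kept cells was 9.53% (95% exact Clopper-Pearson interval 8.94% to 10.2%) and 7.67% (7.09% to 8.28%) in the vehicle mice and 8.15% (7.69% to 8.63%) and 7.55% (7.02% to 8.11%) in the PM mice. The means were 8.60 ± 1.32% and 7.85 ± 0.423% (SD, n = 2 each), and the groups overlapped (exact permutation test, two-sided, p = 0.667). Intervals cover counting error alone. With every cell thinned to 5000 UMIs both PM libraries were lower (10.3% and 10.1% against 9.82% and 9.72%). So they were with a stricter gate (at least 5 Fcnb, 10 Camp and 4 Mki67 and Top2a UMIs), at 8.02% and 6.66% against 6.18% and 6.02%. The difference was −0.750 points in the main gate and −1.24 in the stricter one. With a looser gate, a stricter cell filter or the highest doublet scores removed the groups overlapped. Among cells with the same Fcnb, Camp and Csf1r gates, the share that was cycling was 79.7% and 69.8% in vehicle and 83.0% and 80.2% after PM. Both PM libraries were higher, with p = 0.333 in the exact permutation test, the smallest it gives with 2 mice against 2. With every cell thinned to 5000 UMIs the shares were 79.2% and 69.4% against 76.1% and 76.6%, and the groups overlapped. Fewer cells of a stage and less RNA in each of them cannot be told apart from shares alone.

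The effect of PM on the precursors was tested on the UMIs summed over the members of each mouse, with edgeR's quasi-likelihood test and TMM scaling, which sets the libraries level on the bulk of their genes. A gene was called when its Benjamini-Hochberg adjusted p was below 0.05 and its log2 fold change was beyond 0.5 in size. Of 11475 genes tested, 354 were called higher after PM (3.08%) and 115 lower (1.00%). The rises were mostly of genes that vehicle precursors hardly transcribed: the median vehicle level was 2.83 CPM for the genes called higher, 76.7 CPM for those called lower and 18.5 CPM for all genes tested, and 95 of the 354 were under 1 CPM in vehicle. The called rises had a median log2 fold change of 1.47, against −0.62 for the called falls. These sets differ in level, and the sizes were not compared at equal level. Among the 5551 genes that averaged 20 CPM or more, 51 were called higher and 95 lower.

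The counts depended on the mice left in and on the scaling. Without vehicle replicate 1, 7 genes were called higher and 1 lower by the adjusted p. The genes called higher with all mice had a median of 1.32 there, against 1.47 with all mice, and those called lower −0.49 against −0.62. Of these genes, which were chosen with that mouse included, 97.4% had an unadjusted p below 0.05 without it. Over all genes 1178 had one, against 2601 with all mice. With scaling to library size alone, which moved the median of all genes by 0.15 on the log2 scale, 94.7% of the calls were higher (1217 against 68), where TMM gave 75.5%. Nothing in the labels says whether mice were housed or processed together. In a figure caption the paper describes its vehicle and PM samples as coming from independent experiments, but does not say which mice shared one. A difference between the days or hands behind the libraries therefore cannot be told apart from the treatment.

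Crip1, a small LIM-domain protein gene on chromosome 12 (ENSMUSG00000006360, GRCm38 12:113146316-113153879), had the largest rise among called genes at 20 CPM or more. It stood at 14.7 and 18.4 CPM in the vehicle precursors and at 155 and 122 CPM after PM (log2 fold change 3.08 ± 0.16 SE, adjusted p = 1.6e-06 by edgeR). With every cell thinned to 5000 UMIs, 4.34% and 7.26% of vehicle members and 44.7% and 42.1% of PM members held a Crip1 UMI. Both PM libraries were above both vehicle libraries, and no share from cells that lack Crip1 was computed as background, so the part of free RNA in these shares was not tested. In the other cells of the marrow Crip1 was abundant, at 576, 788, 777 and 588 CPM, and the groups overlapped.

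Ptms (parathymosin, an acidic protein that binds linker histones, chromosome 6) had the next largest rise, from 12.5 and 17.0 CPM to 93.3 and 102 CPM (2.74 ± 0.15, adjusted p = 1.6e-06 by edgeR). S100a6, a calcium-binding protein gene on chromosome 3, rose from 418 and 362 CPM to 1776 and 1099 CPM (1.88 ± 0.23, adjusted p = 0.0024). H1f0, the linker histone H1.0 on chromosome 15 and a gene known to rise with HDAC inhibitors, went from 52.7 and 61.1 CPM to 165 and 149 CPM (1.47 ± 0.13, adjusted p = 0.0001). In each of the 3 genes both PM libraries lay above both vehicle libraries by more than the spread within a group. Crip1 and Ptms kept their calls in each of the other settings and left-out libraries that were tried. H1f0 lost its call when vehicle replicate 1 was left out (adjusted p = 0.065), and S100a6 lost it there (0.15) and among the members rich in Elane and Mpo (0.38).

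Of the other large rises, Siglecg, a sialic-acid-binding receptor gene, rose from 37.8 and 43.9 CPM to 92.9 and 94.9 CPM (1.20 ± 0.12). Cd93, a receptor gene of early progenitors and endothelium, rose from 13.7 and 17.8 CPM to 34.6 and 35.5 CPM (1.16 ± 0.15). Vcam1, an adhesion molecule gene that is also a marker of marrow macrophages, rose from 76.4 and 113 CPM to 194 and 225 CPM (1.14 ± 0.19). The PM libraries agree within a few CPM in Siglecg and Cd93, and the vehicle libraries differ most in Vcam1. Klrb1f, a lectin-like receptor gene, Tmsb10, a thymosin gene that binds actin, Man1a, a mannosidase of the Golgi, Cbfa2t3, a transcriptional corepressor, and the unannotated 9330159M07Rik completed the 12, with log2 fold changes of 1.83, 1.18, 1.14, 1.13 and 1.11.

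Among the falls, Fpr2, a formyl peptide receptor gene of neutrophils (chromosome 17), went from 213 and 141 CPM to 67.7 and 62.4 CPM (−1.44 ± 0.19, adjusted p = 0.0065 by edgeR). Zmpste24, the protease that matures lamin A (chromosome 4), went from 349 and 271 CPM to 114 and 123 CPM (−1.39 ± 0.15, adjusted p = 0.00039). St3gal5, the sialyltransferase that makes the ganglioside GM3 (chromosome 6), went from 212 and 201 CPM to 84.2 and 85.1 CPM (−1.29 ± 0.12, adjusted p = 0.00014). In these genes every PM library lay below every vehicle library, which the rule for naming them required. St3gal5 had the tightest replicates of the 3 in both groups, but among the members with at least 20 Elane and Mpo UMIs its log2 fold change was 0.58 (adjusted p = 0.47).

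Of the other 9 large falls, Asns (asparagine synthetase, −1.14), Map1lc3a (an autophagosome protein, −1.09) and Trp53inp2 (a regulator of autophagy, −1.04) fell. So did Olfml2b (an olfactomedin-like protein, −1.03), Calcrl (a calcitonin-receptor-like receptor, −0.99), Reck (an inhibitor of matrix metalloproteinases, −0.95) and Lrg1 (a leucine-rich glycoprotein of neutrophil granules, −0.89). Orm1 (an acute phase glycoprotein, −1.40) and Anxa1 (annexin A1, −0.89) also belong to the secondary granule list and are given below. Adjusted p of these 9 genes ran up to 0.043, by edgeR's quasi-likelihood test, so several lay close to the threshold.

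**Figure D3:**
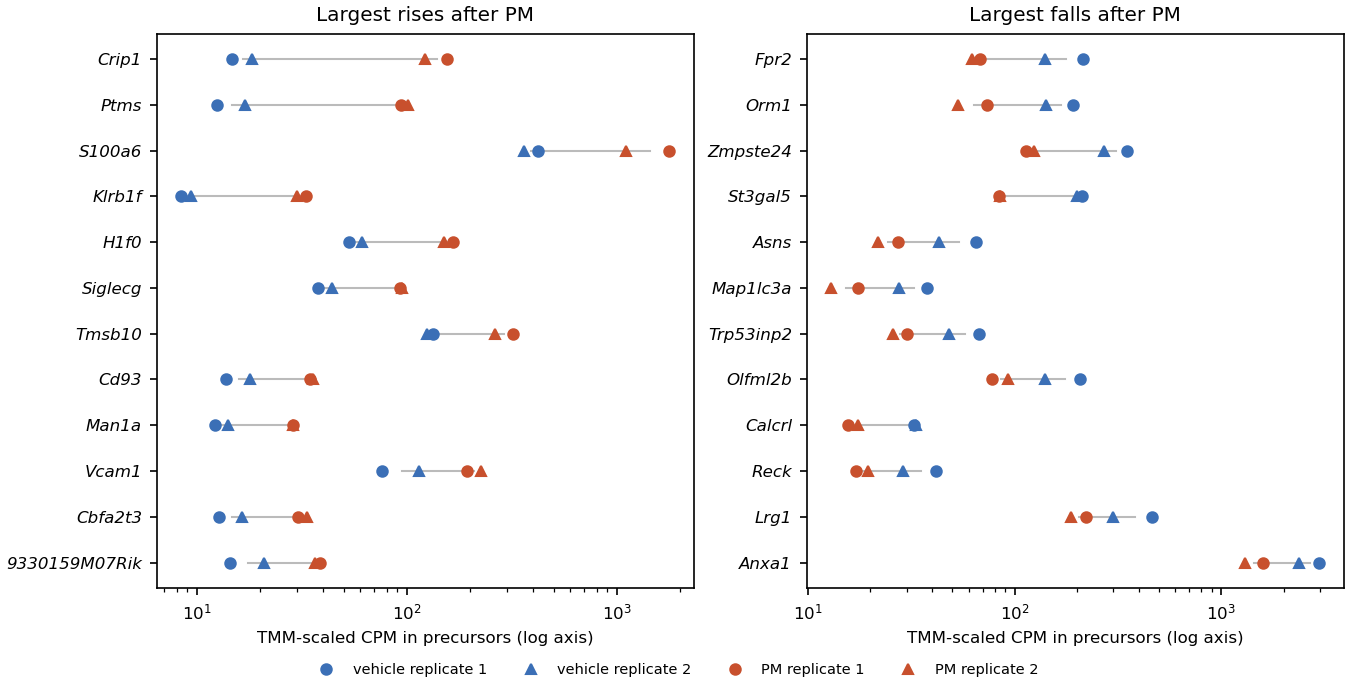
The 12 largest rises (left) and the 12 largest falls (right) among called genes that averaged 20 CPM or more, as TMM-scaled CPM of each library on a log axis, blue for vehicle and red for PM, circles for replicate 1 and triangles for replicate 2, with a grey line between the group means. In all 24 genes the 2 vehicle libraries and the 2 PM libraries do not overlap, which the rule for naming them required.

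Secondary granule genes were called lower more often than those of any other list tested. Of 16 secondary granule genes tested (the marker Chil3 among them, the gate gene Camp not), 6 were called lower and none higher, against 1.00% of all genes called lower, and the median log2 fold change was −0.62 against 0.00 for all genes. The PM libraries lay below the vehicle libraries in 14 of the 16, where 26.7% of all tested genes did so. The summed level of the list was 87862 and 75491 CPM in vehicle and 57162 and 55068 CPM after PM, and its median stayed negative under each scaling tried (−0.47 with library size alone). Without vehicle replicate 1 no gene of the list was called, with a median of −0.42.

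Ltf went from 11698 and 9006 CPM in vehicle to 5680 and 5520 CPM after PM (−0.89 ± 0.20, adjusted p = 0.033 by edgeR). Lcn2 (lipocalin 2, which binds bacterial siderophores) went from 11010 and 8798 CPM to 6155 and 5128 CPM (−0.81 ± 0.21, adjusted p = 0.044). Anxa1, an anti-inflammatory phospholipid-binding protein gene, went from 2980 and 2376 CPM to 1591 and 1301 CPM (−0.89 ± 0.19, adjusted p = 0.024). The PM libraries of these 3 genes were close to each other and below both vehicle libraries, of which replicate 1 was the higher each time. Orm1 fell from 191 and 142 CPM to 73.1 and 53.4 CPM (−1.40), Wfdc21 (a whey acidic protein gene) from 3935 and 4074 CPM to 2509 and 2255 CPM (−0.75), and Olfm4 (olfactomedin 4) from 200 and 219 CPM to 141 and 126 CPM (−0.65).

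Ngp did not pass the test, at 35310 and 33164 CPM against 21712 and 23640 CPM (−0.59 ± 0.21, adjusted p = 0.12 by edgeR). The gate genes are given as description: Fcnb was at 1033 and 1274 CPM against 748 and 741 CPM, and Camp at 33523 and 38911 CPM against 37260 and 29221 CPM. Chil3 was at 10205 and 7672 CPM against 9870 and 9683 CPM (0.13 ± 0.21), and Cebpe was at 642 and 602 CPM against 550 and 524 CPM (−0.21 ± 0.15).

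C/EBP factors bind promoters of secondary granule genes, so the promoters of this list were read for the letters TTGCNNAA on both strands, where the reverse reads TTNNGCAA. In RefSeq promoters of GRCm38.p6 (300 bases, 250 before to 50 after the start of the gene), the letters were present in 10.8% of all 27025 genes and in 4 of the 13 secondary granule genes that had an entry. The first match of each of the 3 genes called lower and of Ngp, which holds another, is shown 5′ to 3′ on the strand of the gene, with the match in capitals and 10 bases on each side. They lie at chr9:111019207-111019234 (Ltf, plus strand), chr2:32387938-32387965 (Lcn2, minus strand), chr19:20390797-20390824 (Anxa1, minus strand) and chr9:110419660-110419687 (Ngp, plus strand). A match is a description of the letters, not a measured site.
Ltf: ggcaggcctaTTGGGCAAtagggtgggg
Lcn2: gcccttcctgTTGCTCAAccttgcacag
Anxa1: ccgggagtagTTTTGCAAgacttgtttc
Ngp: tcctggtttaTTGCCCAAacctccttgc

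No primary granule gene was called. Of the 10 tested, 5 had an unadjusted p below 0.05, all higher after PM, the median log2 fold change was 0.38, and the PM libraries lay above the vehicle libraries in 7 of 10, against 27.8% of all tested genes. Elane was at 2041 and 2668 CPM in vehicle and 3729 and 3158 CPM after PM (0.55 ± 0.20, adjusted p = 0.12 by edgeR). Mpo was at 1733 and 2482 CPM against 3281 and 3468 CPM (0.68 ± 0.20, adjusted p = 0.074). Prtn3, the transcript of proteinase 3, was at 2629 and 3001 CPM against 3051 and 3159 CPM (0.14). DESeq2 called 2 of the 10 higher, where it called 232 of all 11475 genes higher. Scaling to library size alone gave 6 of the 10, where it gave 1217 of all 11475. The calls of this list thus rest on the tool and the scaling.

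The test was repeated inside each end of the Elane and Mpo range. Elane and Mpo were themselves higher in the PM libraries and the cuts were set after the values were seen, so these subsets are not matched between the groups and the values are a description. Among members with at most 5 Elane and Mpo UMIs, 1 of 16 secondary granule genes was called lower, as were 12 of all 10212 genes, and the median of the list was −0.34. Among members with at least 20 such UMIs none was called, 7 of all 10454 genes were called lower, and the median of the list was −0.29. Ltf was at −0.48 (adjusted p = 0.20) and −0.27 (adjusted p = 0.69) at the poor and the rich end. Crip1 (3.36 and 3.04), Ptms (2.98 and 3.0) and H1f0 (1.82 and 1.25) were called at both ends. Each of these fits rests on fewer cells.

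Of 28 transcription factor genes of the granulocyte line, 4 were called higher and 1 lower, against 3.08% and 1.00% of all genes tested, with a median of 0.14. Gfi1, the repressor that turns progenitors towards neutrophils, rose from 92.8 and 106 CPM to 147 and 206 CPM (0.83 ± 0.16, adjusted p = 0.024 by edgeR). Myb, a factor of immature progenitors, rose from 128 and 174 CPM to 233 and 288 CPM (0.79 ± 0.17, adjusted p = 0.028). Cebpa, the factor that opens the granulocyte program, rose from 15.3 and 21.3 CPM to 28.5 and 38.9 CPM (0.88, adjusted p = 0.044). In all 3 genes both PM libraries lay above both vehicle libraries, and PM 2 was the highest. Myc, a driver of growth, rose from 12.2 and 9.78 CPM to 20.8 and 27.9 CPM (1.13, adjusted p = 0.0059), and Nfil3, a leucine zipper repressor, fell from 39.6 and 31.8 CPM to 21.8 and 21.3 CPM (−0.73, adjusted p = 0.012). None of the 28 was called without vehicle replicate 1, where Gfi1 was at 0.74, Myb at 0.60, Cebpa at 0.67, Myc at 1.32 and Nfil3 at −0.55 (adjusted p from 0.15 to 0.40 by edgeR) and the median of the list was 0.12.

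Of 40 MYC target and ribosome assembly genes, 2 were called higher (Ppan, a ribosome biogenesis factor, and Srm, spermidine synthase). This share was near the 3.08% of all genes called higher. The median was 0.22, and 15 had an unadjusted p below 0.05 in edgeR on the higher side and 1 on the lower. The PM libraries lay above the vehicle libraries in 19 of the 40 and below them in 6, against 27.8% and 26.7% of all tested genes. Of 22 tertiary granule and late neutrophil genes, S100a6 was called higher and Fpr2 and Il1b were called lower, against 3.08% and 1.00% of all genes. Il1b, the cytokine interleukin-1β, went from 20.2 and 28.0 CPM to 11.9 and 14.5 CPM (−0.87, adjusted p = 0.023 by edgeR). None of 6 NADPH oxidase genes was called by edgeR (3 had an unadjusted p below 0.05, and DESeq2 called 1 lower), although the PM libraries were the lower in all 6, against 26.7% of all tested genes. Cybb, the catalytic subunit, stood at 2935 and 2323 CPM against 1657 and 1673 CPM (−0.66, adjusted p = 0.059).

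**Figure D4:**
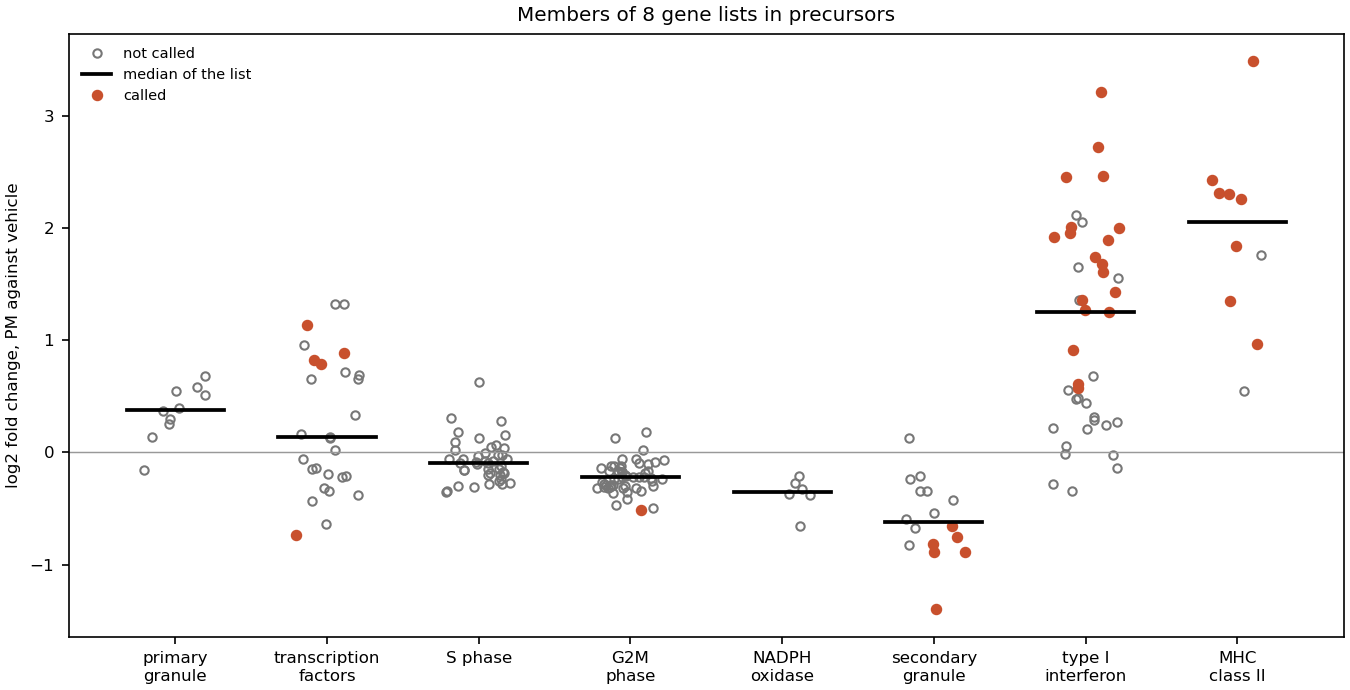
Log2 fold change of PM against vehicle in the precursors for the members of 8 gene lists, 1 point per gene, filled red where the gene was called and open grey where it was not, with a black bar at the median of each list. Ifi44, which had no UMI in either vehicle library, is drawn at its lower bound, and the medians run from −0.62 in the secondary granule list to 2.05 in the MHC class II list.

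Cell cycle transcripts, part of which chose the members, gave few calls, where 3.08% of all genes were called higher and 1.00% lower. None of 43 S phase genes was called by edgeR or DESeq2 (6 had an unadjusted p below 0.05 in edgeR, 1 higher and 5 lower), and the PM libraries lay above vehicle in 4 and below it in 13 of them, against 27.8% and 26.7% of all tested genes. Of 52 G2/M genes, Bub1, a spindle checkpoint kinase, was called lower (71.3 and 61.5 CPM against 42.9 and 50.4 CPM, −0.51, adjusted p = 0.042 by edgeR). That share of the list was near the 1.00% of all genes called lower. The G2/M list had a median of −0.22, with 49 of 52 log2 fold changes below 0 and no overlap of the groups in 44 of them on the lower side, against 26.7% of all tested genes. Its summed level was 15778 and 14685 CPM in vehicle and 12835 and 12228 CPM after PM. With library size alone its median was −0.07, where the median of all genes was 0.15, and no gene was called. The distance of the list from 0 thus rests on the scaling, but the list lay below the median of all genes in both scalings. E2f2, a transcription factor of S phase genes, fell from 240 and 182 CPM to 142 and 141 CPM (−0.58, adjusted p = 0.041 by edgeR). It was the only call among 23 cyclin and CDK inhibitor genes, against 1.00% of all genes called lower. Cdkn1a, the inhibitor p21, known to rise with HDAC inhibitors, was at 13.9 and 11.6 CPM against 16.4 and 23.9 CPM (0.64, adjusted p = 0.079).

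None of 10 HDAC genes passed the test in edgeR or DESeq2. The list holds 4 class I genes and Hdac6 and Hdac10 of class IIb, which the drug inhibits, and 4 class IIa genes, of which Hdac4 (−0.41 ± 0.11, adjusted p = 0.058) was the 1 of the 10 with an unadjusted p below 0.05 in edgeR. Hdac1 was at 129 and 122 CPM against 120 and 116 CPM (−0.09 ± 0.12) and Hdac3 at 41.1 and 35.3 CPM against 33.8 and 36.0 CPM (−0.13 ± 0.12). Hdac6, of class IIb, was at 5.89 and 6.75 CPM against 4.95 and 5.17 CPM (−0.32 ± 0.23). Of the 5 genes listed as known to rise with HDAC inhibitors, H1f0 was the 1 called, where 3.08% of all genes were called higher and 1.00% lower. The edgeR test called none of 14 BCL2 family genes, 8 glucocorticoid response genes, 82 ribosomal protein genes and 58 replication-dependent histone genes, of which 4, 2, 0 and 5 had an unadjusted p below 0.05 (DESeq2 called 1 histone gene higher). Of 23 immediate early and stress genes, Nfkbia, the inhibitor of NF-κB, was the 1 called lower, against 1.00% of all genes (207 and 168 CPM against 121 and 124 CPM, −0.61). Among 78 oxidative phosphorylation genes edgeR called 1 (Cox6b2, higher), below the 3.08% of all genes called higher. Of these 78, 62 had a log2 fold change below 0 and 16 above (median −0.13). An unadjusted p below 0.05 was found for 6 on the lower side and 1 on the higher. The PM libraries were the lower in 24 of the 78, against 26.7% of all tested genes. Of the 58 histone genes 48 were below 0 and 10 above (median −0.33), with the PM libraries the lower in 9.

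Type I interferon response genes formed the list with the most calls. Of 41 tested, 19 were called higher and none lower, against 3.08% of all genes called higher. The median log2 fold change was 1.25, and the PM libraries lay above the vehicle libraries in 34 of 41, against 27.8% of all tested genes. Called members were scarce in vehicle, up to a mean of 26.7 CPM for Irf9. The most abundant gene of the list, Ifitm3, a membrane protein that blocks virus entry, was at 453 and 257 CPM against 463 and 277 CPM (0.06 ± 0.42). Without vehicle replicate 1, 1 gene of the list was called, with a median of 1.22.

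Rsad2 (viperin, an antiviral enzyme) rose from 1.72 and 2.25 CPM to 16.9 and 8.69 CPM (2.72 ± 0.36, adjusted p = 0.007 by edgeR). Irf7, the factor that amplifies interferon production, rose from 1.84 and 2.16 CPM to 9.05 and 5.60 CPM (1.89 ± 0.30, adjusted p = 0.0057). Slfn8, of the Schlafen family, rose from 2.09 and 3.38 CPM to 11.0 and 9.77 CPM (1.95 ± 0.26, adjusted p = 0.0017). Every PM library was above every vehicle library, and PM 1 was the higher of the PM libraries in all 3 genes. Bst2 (tetherin, which holds budding virus at the membrane) rose from 10.0 and 11.7 CPM to 33.1 and 22.1 CPM (1.36 ± 0.20), and Irf9, a DNA-binding factor of the interferon response, from 26.3 and 27.0 CPM to 39.4 and 39.9 CPM (0.57 ± 0.12). Ifi44 had no UMI in either vehicle library and 0.692 and 0.790 CPM after PM.

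The list was also called inside the Elane-poor end of the gate, with 19 of 40 genes higher among members with at most 5 Elane and Mpo UMIs and a median of 1.27, where 167 of all 10212 genes tested were. Among the members with at least 20, edgeR called 0 of 37 and 61 of all 10454 genes, and the median of the list was 0.63. With the members removed that held at least 3 UMIs from 13 genes of other cell types, 21 of 40 were called and the median was 1.06, where 279 of all 10926 genes were called higher. The same genes were also present outside the precursors: Rsad2 was at 37.6 and 26.2 CPM in the other cells of the vehicle libraries and at 89.3 and 101 CPM in those of the PM libraries. How much of the low level in the members came from free RNA of those cells was not tested.

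Factors activated by interferon bind the interferon-stimulated response element, whose core can be written as GAAA, any 2 bases and GAAA, so the promoters of this list were read for these letters on both strands, where the reverse reads TTTC, any 2 bases and TTTC. They were present in 3.49% of all 27025 RefSeq promoters (GRCm38.p6, 300 bases) and in 15 of the 32 list members with an entry. Among the 14 called members with an entry, 7 held them. The lines below show matches in 4 called genes, 5′ to 3′ on the strand of the gene, with the match in capitals. They lie at chr19:34640775-34640804 (Ifit1, plus strand), chr12:26456553-26456582 (Rsad2, minus strand), chr8:71537583-71537612 (Bst2, minus strand) and chr11:83020839-83020868 (Slfn8, minus strand).
Ifit1: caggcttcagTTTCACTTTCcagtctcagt
Rsad2: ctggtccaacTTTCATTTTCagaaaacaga
Bst2: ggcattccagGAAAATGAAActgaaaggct
Slfn8: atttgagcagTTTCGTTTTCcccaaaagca

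MHC class II genes, which present antigen on B cells, dendritic cells and macrophages, were also called. This list was added after their values had been seen, so its counts are a description. Of 10 genes, 8 were called higher, against 3.08% of all genes, the median was 2.05, and the summed level went from 35.9 and 47.3 CPM to 153 and 113 CPM. H2-Aa, an alpha chain gene, was at 2.27 and 5.28 CPM against 17.9 and 18.1 CPM (2.30 ± 0.32, adjusted p = 0.011 by edgeR). H2-Ab1, the matching beta chain gene, was at 4.72 and 7.36 CPM against 21.4 and 21.1 CPM (1.84 ± 0.20, adjusted p = 0.00048). Ciita, the coactivator that switches the class on, was at 0.0613 and 0.0866 CPM against 0.851 and 0.934 CPM. Cd74, the invariant chain gene, was the most abundant and did not pass, at 12.8 and 15 CPM against 62.1 and 30.8 CPM (1.76 ± 0.46, adjusted p = 0.17).

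The share of cells with such a UMI was then set beside T cells, at equal depth. With every cell thinned to 5000 UMIs, an H2-Aa UMI was present in 1.03% and 1.18% of vehicle members and 5.09% and 1.30% of PM members. In cells of the same libraries gated as T cells (at least 3 UMIs of Cd3d and Cd3e, at most 2 of Fcnb and 4 of Camp), which should lack the gene, the shares were 4.00%, 2.38%, 15.2% and 3.23%, over 25, 42, 112 and 93 cells. The members were below the T cell share in all 4 libraries, and PM 1 was the highest in both populations. For H2-Ab1 the members stood at 1.37%, 2.87%, 8.43% and 5.48% against 4.00%, 2.38%, 17.0% and 5.38%, above the T cells in vehicle 2 and PM 2 by less than a percentage point. With members holding 3 or more UMIs of other types removed, H2-Aa was at 1.29 (adjusted p = 0.23) and 3 of 8 genes of the list were called. The T cell shares rest on few cells, and the part of free RNA and of mixed cells in these values was not tested.

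The proximal promoters of MHC class II genes carry a Y box whose core is CCAAT, here read as ATTGG on the strand of the gene. CCAAT was present on either strand in 37.9% of all RefSeq promoters and in 6 of the 7 members with an entry. The windows of H2-Aa (chr17:34287857-34287881, minus strand), H2-Eb1 (chr17:34305798-34305822, plus strand) and H2-Ob (chr17:34238838-34238862, plus strand; GRCm38.p6) show these letters in capitals. They were also present in H2-DMb2, which was not called.
H2-Aa: gaattttctgATTGGttctggcgag
H2-Eb1: tttgatgctgATTGGctcccagcac
H2-Ob: ttcgctcttgATTGGttaacagtgt

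Markers of other cell types gave 0 to 3 calls per list, all higher, where 3.08% of all genes were called higher. Each list with a call stood above that share, and all of these lists were short. Erythroid markers had a median of 1.05 and a summed level of 198 and 251 CPM in vehicle against 632 and 350 CPM after PM, with Hba-a1 and Hba-a2 called and Hbb-bs the most abundant at 107 CPM. With thinned cells the log2 fold change of Hba-a1 was −0.058 and that of Hba-a2 −0.40, so the direction of these calls turned, and Hba-a2 was at −0.26 among the members rich in Elane and Mpo. Dendritic cell markers had a median of 1.02 and a sum of 37.2 and 49.4 CPM against 142 and 99.9 CPM, with Bst2, H2-Aa and H2-Ab1 called. Among macrophage markers Vcam1 made most of the sum of 82.5 and 120 CPM against 209 and 233 CPM, and was the 1 called of 5 (median 1.14). Trbc2, a T cell receptor constant gene, was the 1 called of 4 T and NK cell markers (median 1.08), and Cd34 the 1 called of 6 stem and progenitor markers (median 0.62). Basophil markers (median 0.94, 42.3 and 21.6 CPM against 124 and 85.3 CPM) and monocyte markers (median 0.95, 1384 and 1398 CPM against 1741 and 1601 CPM) had no call, and neither had B cell markers (median 1.20), plasma cell markers (median 0.21, 4 up and 3 down) or megakaryocyte markers (median 1.47 over 3 genes, 2.15 and 4.24 CPM against 7.13 and 21.6 CPM). Of 2 stroma markers Cxcl12 was called higher, at 1.04 and 1.30 CPM against 3.19 and 3.09 CPM (1.43 ± 0.37). The sum of plasma cell markers followed the replicate number more than the treatment, at 2437, 288, 2414 and 378 CPM. Igkc, its most abundant gene, stood at 1560, 43.5, 1783 and 73.0 CPM. Not every gene of the list followed the number: Igha stood at 401, 28.7, 31.5 and 32.4 CPM and Ighg2b at 14.5, 7.79, 283 and 9.41 CPM.

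Members with fewer than 3 UMIs from 13 other-type genes numbered 829, 516, 906 and 567, or 93.9%, 86.0%, 83.0% and 81.0% of the members. With only these kept, 279 genes were called higher and 61 lower, of which 234 and 58 were among the main calls. Crip1 stood at 3.40 there. Among members, 3, 9, 32 and 9 cells held at least 3 Cd79a UMIs, a B cell gene. Cells with high doublet scores made up 6.34%, 6.67%, 9.72% and 7.14% of the members. With the highest 6% of doublet scores removed from each library, 387 genes were called higher and 120 lower. The part of free RNA in the called rises was not tested.

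The effect of PM on the precursors was then set beside its effect on the neighbouring populations, each tested in the same way. PM against vehicle gave 247 higher and 82 lower calls among 7543 genes in the non-cycling cells (3.27% and 1.09%), and 248 and 117 among 11674 genes in the Cxcr2 gate (2.12% and 1.00%). It gave 4 higher (0.0344%) and 0 lower among 11643 genes in the GMP-like gate, where 1105 had an unadjusted p below 0.05, and 0 in either direction among 13149 genes in the other cycling cells, where 739 did. The populations differ in cell number and depth, so these counts are not a measure of how strongly each one answered. The differences were tested with an interaction term in edgeR that kept the mouse as a block. Further up or further down refers to the log2 fold change in the precursors minus that in the other population. A gene further down can thus have risen in both.

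Against the GMP-like gate, 273 genes moved further up (2.22%) and 107 further down (0.871%) in the precursors, of 12283. Crip1 differed by 3.03 ± 0.13 (adjusted p = 3.7e-08): the GMP-like cells already had it at 531 and 766 CPM in vehicle and 816 and 552 CPM after PM. Of 16 secondary granule genes 5 were called further down and none further up, with a median difference of −0.61 against 0.03 for all genes. That gate holds at most 4 Camp UMIs per cell, so this count is a description. Olfm4, at 1.62 and 1.74 CPM in vehicle there, had a log2 fold change of 1.62 there and −0.65 in the precursors. Against the other cycling cells 2 of 16 were called further down, against 0.112% of all genes (median −0.66, all genes 0.03). Those cells hold at most 2 Fcnb and 4 Camp UMIs by their gate, so this count is a description too. None of the 16 was called against the non-cycling cells (−0.12, all genes −0.07) or all other cells (−0.29, all genes 0.04). In the GMP-like contrast St3gal5 differed by −2.20 ± 0.22 (adjusted p = 0.00012), but stood at only 2.39 and 3.11 CPM in the vehicle GMP-like cells. The number of calls fell to 125 without vehicle replicate 1 and rose to 813 without vehicle replicate 2.

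Against the other cycling cells, 60 genes moved further up (0.447%) and 15 further down (0.112%), of 13421. Crip1 (3.16 ± 0.12), Ptms (2.28 ± 0.23), Lgals1 (galectin 1, 2.26 ± 0.13) and S100a6 (2.01 ± 0.11) led the upward differences, and Zmpste24 (−1.41 ± 0.14, adjusted p = 0.0074) was the largest downward one named. Zmpste24 was at 57.4, 55.4, 57.5 and 60.6 CPM in the other cycling cells, where the precursors went from 332 and 256 CPM to 114 and 136 CPM, here without TMM scaling. The calls ranged from 22 without PM replicate 1 to 576 without vehicle replicate 2, with 196 without vehicle replicate 1 and 408 without PM replicate 2.

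Against the non-cycling cells of the same granule gates, the largest rises were also seen in both populations: Crip1 was at 3.12 ± 0.23 and Ptms at 2.66 ± 0.22 there, and neither difference passed the test (adjusted p = 0.99 and 0.96). The 20 genes that moved further up in the precursors (0.183% of 10925) included S100a6, at 1.88 against 0.94 (adjusted p = 1.8e-07). Another 118 moved further down (1.08%). These counts include genes that passed the filter through the precursors alone and cell cycle genes that the gates set. Among the 7478 genes that passed the filter in the non-cycling cells too and were outside the cell cycle lists, 19 moved further up and 84 further down. Of 10 primary granule genes 7 had a called difference below 0, with a median difference of −2.31. In the precursors themselves 9 of the 10 rose and 1 fell (median 0.38), so these differences are not falls there. Elane was at 7.91 and 7.90 CPM in vehicle non-cycling cells and at 449 and 636 CPM after PM, while the precursors went from 1942 and 2525 CPM to 3739 and 3487 CPM. Values of cell cycle genes in the non-cycling cells follow from their gate and are not read. The non-cycling cells were shallower after PM (medians of 10632 and 10194 UMIs in vehicle, 8571 and 8952 after PM), and how many cycling cells thereby fell in the non-cycling gate was not tested.

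**Figure D5:**
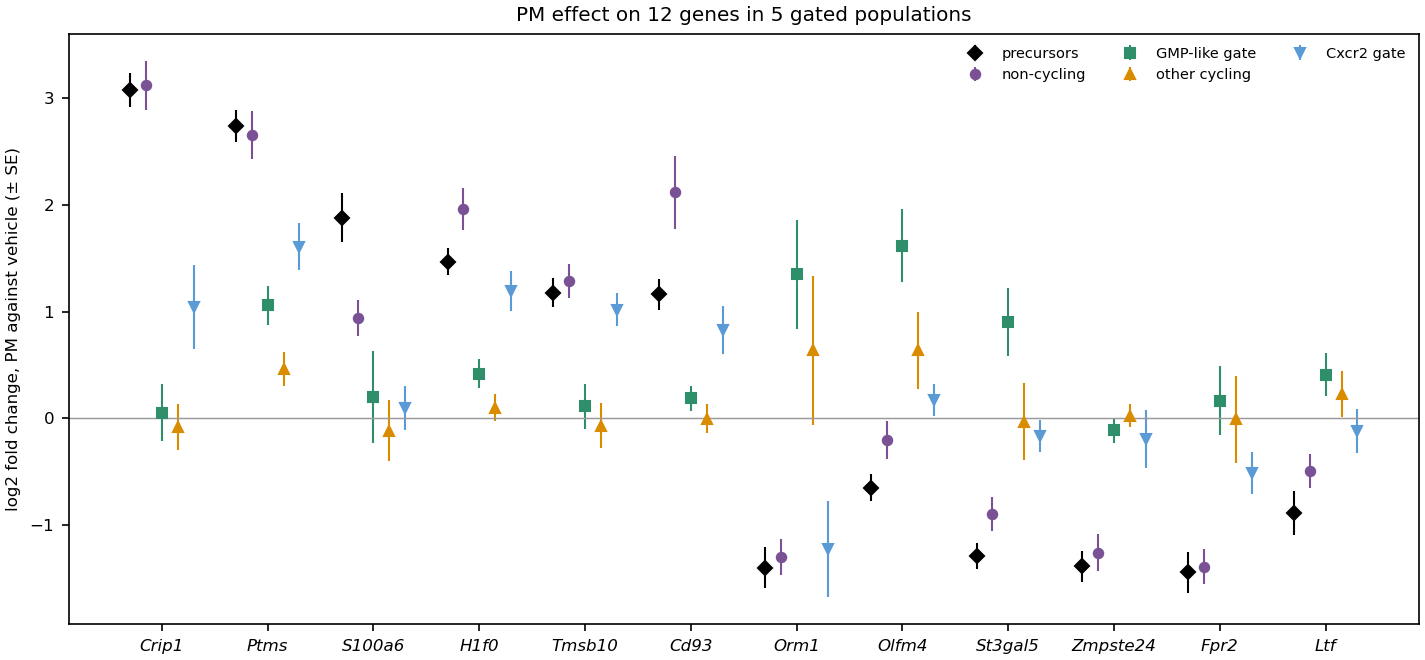
Log2 fold change of PM against vehicle, with its SE, for 12 genes in 5 gated populations. Crip1, Ptms, H1f0, Tmsb10 and Cd93 are above 0 in the precursors, the non-cycling cells and the Cxcr2 gate, with Crip1 at 3.08, 3.12 and 1.04 and at 0.05 in the GMP-like gate, and Orm1 is at −1.40 in the precursors and 1.35 in the GMP-like gate.

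Against all other kept cells, 61 genes moved further up (0.415%) and 8 further down (0.0544%), of 14708. Crip1 differed by 3.16 ± 0.11 (adjusted p = 1.2e-05), Ptms by 1.78 ± 0.12 (adjusted p = 0.00077) and Cd93 by 1.22 ± 0.16 (adjusted p = 0.025). Of 44 interferon genes 4 were called further up, with a median difference of 0.83 against 0.04 for all genes. Rsad2 was not among them, at 2.72 in the precursors and 1.42 in the other cells (adjusted p = 0.62). The interferon list differed less from the nearer populations. Against the other cycling cells 2 of 44 were called further up (0.447% of all genes), with a median difference of 0.29 (0.03 for all genes). Against the GMP-like gate 3 of 43 were (2.22% of all genes), with 0.14 (0.03 for all genes). Against the non-cycling cells 2 of 39 were (0.183% of all genes), with 0.14 (−0.07 for all genes). Of the 10 MHC class II genes, a list added after its values were seen, 4 were called further up than in the other cells, with a median difference of 1.32. Against other cycling cells 3 of the 10 were (0.447% of all genes), with a median difference of 1.33 (0.03 for all genes). Against non-cycling cells 1 of 9 was called further down (1.08% of all genes), with a median difference of −1.27. Against the GMP-like gate 1 of 10 was called further up (2.22% of all genes), with 0.97. The calls against all other kept cells fell to 10 without vehicle replicate 1 and rose to 342 without PM replicate 2.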

How the data were processed

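Bone marrow from 4 mice was sequenced with 10x Genomics 3′ chemistry. The authors aligned reads and counted UMIs with Cell Ranger 6.0.1; their methods name GRCm38, the submitters' processing notes name GRCm39 and STAR, and the files hold no coordinates. The deposited values are raw UMI counts per gene and barcode (32285 genes, not normalized, 9516, 8242, 13848 and 9787 barcodes). Gene positions were taken from GENCODE M21 (GRCm38), in which 32158 gene IDs (99.6%) were found, and promoters from RefSeq GRCm38.p6.

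Cells under 300 genes or over 20% mitochondrial UMIs were removed, the gates were applied to raw UMIs, and counts were summed per library and population. The members and lists were chosen with earlier results of these data known. Sums were tested with edgeR 4.0.16 (R 4.3.3) with filterByExpr, TMM and robust quasi-likelihood F tests, and Benjamini-Hochberg adjustment over all genes tested. The fits were tested on simulated data. Replicates are mice, 2 per group, and shares were compared with exact permutation tests (scipy 1.17.1). Gene levels are CPM, TMM-scaled in the PM tests and plain elsewhere. Named genes are the 12 largest rises and falls among called genes at 20 CPM or more that moved alike in each of the 4 pairs of a vehicle and a PM mouse (no gate, hemoglobin, mitochondrial, T cell receptor or immunoglobulin genes), called list genes, the 4 most abundant genes per list and the 5 largest interactions per comparison. The MHC class II list and the genes named from it were chosen after their values were seen. The floor for a gene at 0 was 3 counts per library. Alternatives were DESeq2 1.42.0, other scalings, filters, gates and thinning to 5000 UMIs (seed 1), and leaving out each mouse. Scrublet marked too few cells in some libraries to be used as planned, so the highest 6% of its scores were removed instead. Of the tested genes 78.0% had a promoter entry, so no test of base composition was made.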

Additional observations from a re-analysis of the deposited data

Results flagged for a closer look

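Each result here was picked out because the PM effect in the precursors differed from that in another population by an interaction test in edgeR (quasi-likelihood, mouse as block, Benjamini-Hochberg adjusted p). Differences are log2 fold change in the precursors minus that in the other population, and CPM are given in the order vehicle 1, vehicle 2, PM 1, PM 2.

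Against the non-cycling cells, 4 genes without a UMI in the vehicle non-cycling cells had the largest fitted differences, and since those fits depend on the prior count they are no bounds. Mybl2, Chek1 and Cenph did not pass the filter in the non-cycling cells alone, whose gate asks for 0 Mki67 and Top2a UMIs, so for these cell cycle genes the fitted values are given with no test. Dmkn (dermokine) differed by −8.81 ± 1.57 SE (adjusted p = 0.00066), with 25.3, 26.4, 48.3 and 50.6 CPM in the precursors and 0, 0, 11.9 and 8.15 CPM in the non-cycling cells. Mybl2, a cell cycle transcription factor, differed by −8.81 ± 1.69, Chek1, the checkpoint kinase, by −8.64 ± 1.83, and Cenph, a kinetochore protein, by −8.12 ± 2.01. Elane differed by −5.33 ± 0.22 (adjusted p = 3.6e-12), with non-cycling cells at 7.91, 7.90, 449 and 636 CPM.

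Against the GMP-like gate, Crip1 differed by 3.03 ± 0.13, Orm1 by −2.77 ± 0.35 (adjusted p = 0.00074; 0.684, 0.622, 2.04 and 1.33 CPM in the GMP-like gate), Olfm4 by −2.26 ± 0.22 (adjusted p = 0.00012), St3gal5 by −2.20 ± 0.22 and Lgals1 by 2.14 ± 0.13 (adjusted p = 5.7e-07). Lgals1, the transcript of galectin 1, was at 9.86, 11.6, 82.1 and 50 CPM in the precursors and was abundant in the GMP-like gate at 571, 788, 1001 and 710 CPM; on its own in the precursors it did not pass the test (2.50, adjusted p = 0.061).

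Against the other cycling cells, Crip1 differed by 3.16 ± 0.12, Ptms by 2.28 ± 0.23 (adjusted p = 0.031), Lgals1 by 2.26 ± 0.13, S100a6 by 2.01 ± 0.11 and Zmpste24 by −1.41 ± 0.14. Against all other cells, Crip1 differed by 3.16 ± 0.11, Lgals1 by 2.19 ± 0.12 (adjusted p = 0.00042), Ptms by 1.78 ± 0.12, Tgfbi by 1.29 ± 0.15 (adjusted p = 0.016) and Cd93 by 1.22 ± 0.16. Tgfbi, an extracellular matrix protein of monocytes, was at 45.6, 39.7, 65.7 and 62.7 CPM in the precursors and at 388, 269, 207 and 181 CPM in the other cells.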

How the results depend on the processing

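The 354 higher and 115 lower calls in the precursors became 232 and 107 with DESeq2, 1217 and 68 with library size alone, 779 and 230 without the low-count filter, and 98 and 41 with thinned cells. Settings added after seeing the data gave 167 and 12 with at most 5 Elane and Mpo UMIs, 61 and 7 with 20 or more, and 279 and 61 with other-type cells removed. Leaving out 1 mouse at a time gave 7 to 652 higher and 1 to 216 lower calls. The interaction calls went from 138 against non-cycling cells to 49 (DESeq2), 48 (thinned) and 112 to 213 with 1 mouse left out; from 380 against the GMP-like gate to 137 (DESeq2), 609 (library size), 777 (no filter), 179 (thinned) and 125 to 813; from 75 against other cycling cells to 125 (DESeq2), 126 (library size), 238 (no filter) and 22 to 576; and from 69 against other cells to 137 (DESeq2), 274 (library size), 279 (no filter), 162 (thinned) and 10 to 342. The cause was not tested. Where 1 mouse was left, it was assumed to vary like the other group. Signs reversed for St3gal5 (0.58 with 20 or more Elane and Mpo UMIs), Hba-a1 (−0.058, thinned) and Hba-a2 (−0.40, thinned; −0.26 with 20 or more). Of 72 named called genes, 60 were also called with DESeq2 and 32 with thinned cells; without vehicle replicate 1, 3 were and none reversed sign. With single mice left out, the difference in share of kept cells ran from −1.68 to 0.184 points (−0.750 with all mice) and that among granule-gated cells from 1.91 to 11.8 points (6.88). Same-numbered mice did not deviate together (correlation 0.0035), so the number was not used as a pairing in the main fit. The sum of plasma cell markers did follow the number, but Igha and Ighg2b within it did not. With the replicate block 417 genes were called higher and 95 lower. The Scrublet calls were not run as planned.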
